A study of Mus musculus with 3 samples.

Results

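The genes described here encode the enzymes of glycolysis, the pentose phosphate pathway and the tricarboxylic acid (TCA) cycle, with the pyruvate dehydrogenase complex that joins glycolysis to the cycle. They were taken from a list of 41 mouse genes, of which 38 had at least 1 probe set annotated to a single gene symbol, out of 18193 such genes on the array. The 38 genes had 90 probe sets, and the one with the greatest mean over the arrays stands for the gene. Gpi1, Eno1 and G6pdx had no such probe set and are not analysed here. These symbols are the enzymes of the glucose phosphate isomerase step, the main enolase step and the entry step of the pentose phosphate pathway, so the account below has gaps there.

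The study measured mRNA with 3' expression arrays in 3 cell populations of C57BL/6 mice, with 1 array each. Embryonic stem (ES) cells of the B6N-22 line were kept in medium with leukemia inhibitory factor and serum on a layer of mouse embryonic fibroblasts that had been treated with mitomycin C to stop their division. B cells (B220) and CD4 T cells came from spleens of mice 6 to 8 weeks old and were taken by magnetic bead sorting, to a purity above 98% per the labels. RNA was isolated at harvest, and the labels name no engineered allele or drug treatment of any of the 3 populations. Neither the number of animals behind each lymphocyte array nor whether the feeder fibroblasts were removed from the ES cells is stated in the labels. The detection level was a signal of 95, the median of all values deposited, and signals under it were raised to it before log2 was taken. A gene counts as measured between a pair of arrays if either lay above that level. No population had a second array, so differences have no replicate check and no test, and precision is limited by the number of arrays. The design sets mRNA expression of the 3 populations side by side.

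Glycolysis splits glucose into pyruvate in the cytosol with a net gain of ATP, and lactate dehydrogenase regenerates the NAD+ that it needs. The pentose phosphate pathway branches off from glucose 6-phosphate and supplies NADPH and ribose for nucleotides, while the TCA cycle oxidises acetyl groups in the mitochondria. Dividing pluripotent cells in culture are known for high glycolytic flux, and resting lymphocytes are known for low glucose use that rises on activation. Many steps have isoenzymes encoded by separate genes, whose use differs between tissues.

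The arrays matched their labels by the listed markers. All 8 ES cell markers exceeded the detection level in ES cells, and 1 of them, Klf4, did so in each lymphocyte array. Their summed signal was 106135 in ES, 2747 in B and 1652 in T cells. The sum over 7 B cell markers was 100618 in B, 502 in ES and 5017 in T cells. The sum over 9 T cell markers was 81294 in T, 1583 in ES and 1497 in B cells. Other cell types also left signal. All 15 fibroblast markers present exceeded the detection level in ES cells, with a summed signal of 61544, against 670 in B cells and 573 in T cells, where 1 marker, Acta2, was above it. Macrophage markers summed to 69964 in T cells, 28949 in B cells and 4331 in ES cells. In RNA from a population, fewer cells of a type and less mRNA per cell cannot be told apart.

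Most of the enzyme genes were brighter in ES cells than in lymphocytes. Of the 38 genes, 28 had their highest signal in ES cells, 7 in T cells and 3 in B cells. Over all 18193 genes, 44.5% were highest in ES cells, 23.6% in T cells and 31.9% in B cells. The enzyme genes were also broadly detected, with 37 of 38 detected in ES, 35 in B and 36 in T cells, against 60.3%, 57.8% and 56.8% of all genes. Pdk2, a pyruvate dehydrogenase kinase gene, was below that level in every array, at 5.9 in ES, 87.6 in B and 62.9 in T cells.

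**Figure D1:**
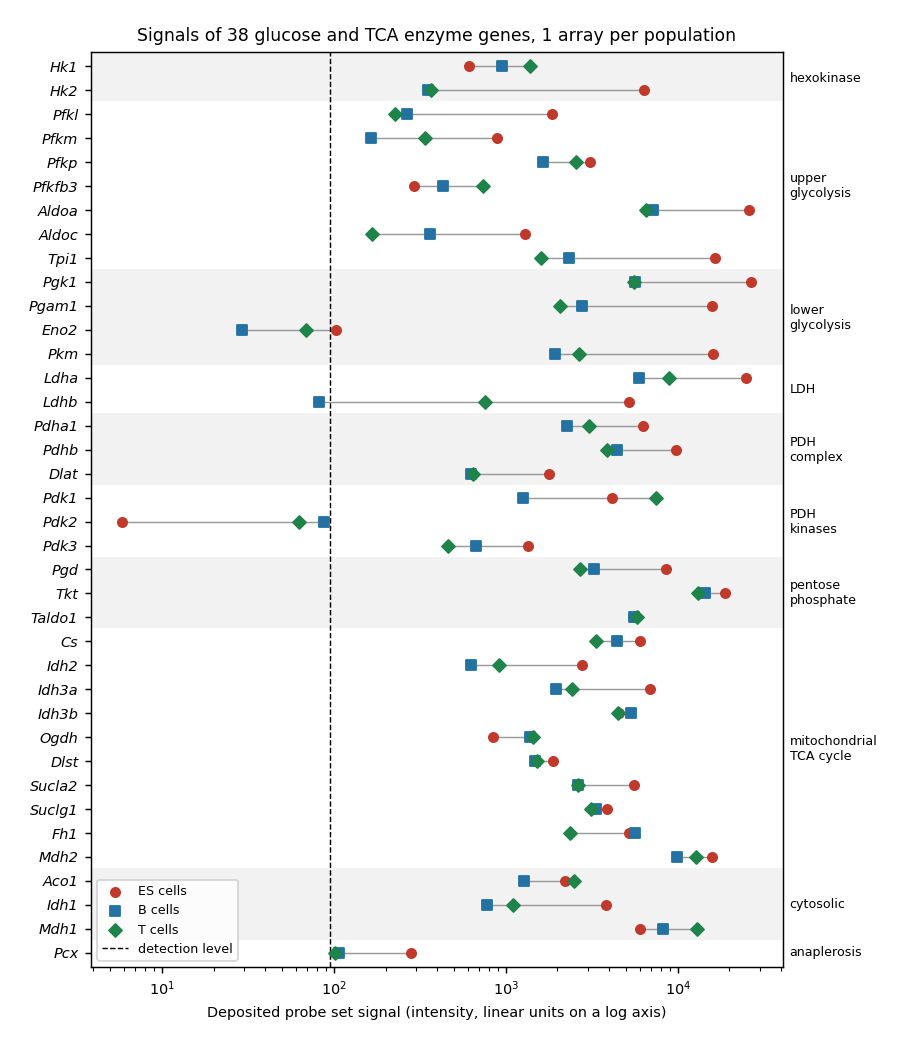
Deposited probe set signals (linear units on a log axis) of the 38 enzyme genes in the ES, B and T cell arrays, 1 array each, ordered by pathway step, with the detection level of 95 drawn as a dashed line. ES cells lie to the right for 28 genes, while Hk1, Pfkfb3, Ogdh, Taldo1, Mdh1 and Pdk2 have their lowest signal there by the probe set shown. Levels can be compared between arrays for a gene, not between genes.

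In T cells against ES cells, 22 of 37 measured enzyme genes were at least 2-fold lower and 3 were at least 2-fold higher. Over all 12325 measured genes, 24.7% were at least 2-fold lower and 22.7% at least 2-fold higher. At 4-fold, 8 of the 37 were lower and 0 higher, against 10.2% and 10.8% of all genes. The median log2 difference was -1.34 for the enzyme genes and -0.11 for all genes. With scaling to the 75th percentile, 0 enzyme genes in place of 3 were at least 2-fold higher and 23 at least 2-fold lower. Of all genes, 17.2% were then higher and 32.8% lower by as much, with a median of -0.42.

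In B cells against ES cells, 22 of 37 measured enzyme genes were lower by 2-fold or more and 0 were higher by as much. Of all 12463 measured genes, 24.6% were at least 2-fold lower and 21.1% at least 2-fold higher. At 4-fold, 11 of the 37 were lower and 0 higher, against 10.3% and 9.85% of all genes. The median log2 difference was -1.38 for the enzyme genes and -0.07 for all genes. This comparison and the one before share the ES cell array, so their values are set side by side and not counted as repeats of each other. Where every measured probe set of a gene had to pass, 14 genes in place of 22 were lower in B cells by 2-fold or more. No share of all genes was computed under that rule, so the 14 cannot be set against the 24.6%.

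In T cells against B cells the enzyme genes lay close together. Of 36 measured genes, 3 were higher in T cells by 2-fold or more and 2 lower, against 8.89% and 6.32% of 11194 genes. At 4-fold, 2 of the 36 were higher and 0 lower, against 2.49% and 1.85% of all genes. The median log2 difference was 0.05 for the enzyme genes and -0.05 for all genes. These shares are near those of all genes. The 5 genes past 2-fold were Ldhb, Pdk1 and Pfkm, higher in T cells, and Fh1 and Aldoc, lower in T cells. Pfkm was short of 2-fold with quantile normalization, with 16 added in place of the floor and with detection at the 65th percentile (0.48 on the log2 scale). Aldoc was short of it with the 65th percentile (-0.58) and with the mean of its probe sets (-0.57), the dimmer of which was below the detection level in every array.

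**Figure D2:**
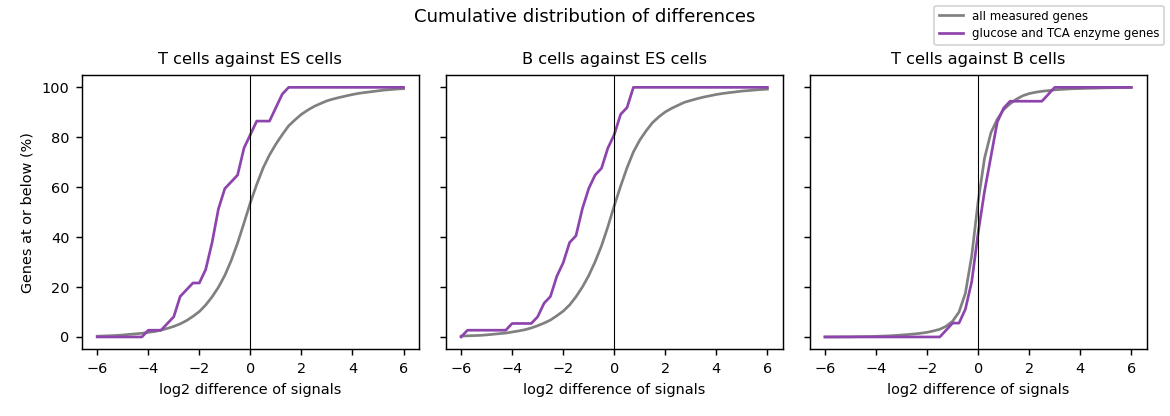
Cumulative share (%) of the measured enzyme genes (purple) and of all measured genes (grey) at or below each log2 difference of signals, for the 3 comparisons. The purple curve lies left of the grey one against ES cells, with medians of -1.34 and -1.38, and close to it for T cells against B cells, with a median of 0.05.

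Of the listed enzyme genes, those of glycolysis and lactate dehydrogenase had the greatest differences from ES cells. Other glycolysis genes, outside the member list, are given further below and did not share this. The 15 measured glycolysis and lactate dehydrogenase genes had a median log2 difference of -2.26 (T cells) and -2.25 (B cells) against ES cells. The other 22 had medians of -0.95 and -0.90. All 8 genes with a signal at least 4-fold lower in T cells, and 9 of the 11 in B cells, belonged to glycolysis or lactate dehydrogenase. In the same comparisons, both lymphocyte arrays had 15 of 15 fibroblast markers at least 2-fold below ES cells. Of 19 proliferation genes, 18 in T and 16 in B cells were also at least 2-fold below. Proliferation genes summed to 135700 in ES, 37252 in B and 34599 in T cells. The part of feeder cells and of cell division in the enzyme differences was not tested.

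The spread that could be seen was that between probe sets of one gene. Over all genes with at least 2 measured probe sets, the 2 brightest differed by a median of 0.54 on the log2 scale for T cells against ES cells, 0.51 for B cells against ES cells and 0.30 for T cells against B cells. The 90th percentiles of that disagreement were 1.75, 1.77 and 0.87. It covers probe effects, not differences between cultures or animals. Of the enzyme genes with several measured probe sets, probe sets of opposite sign were found in 7 of 24 for T cells against ES cells, 4 of 23 for B cells against ES cells and 7 of 24 for T cells against B cells.

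The upstream sequences of 4 genes are shown first because they are the gene of greatest absolute difference between T cells and ES cells in each group of glycolysis genes: the hexokinase step, upper glycolysis, lower glycolysis and lactate dehydrogenase. The 250 bases before the start of each gene are given 5′ to 3′ on the gene's strand, from RefSeq promoters of build GRCm38.p6. Capitals mark ACGTG or GCGTG on either strand, the core letters of the hypoxia response element bound by hypoxia-inducible factors, which control many glycolysis genes. Hk2 lies at chr6:82774455-82774704, minus strand.
Hk2: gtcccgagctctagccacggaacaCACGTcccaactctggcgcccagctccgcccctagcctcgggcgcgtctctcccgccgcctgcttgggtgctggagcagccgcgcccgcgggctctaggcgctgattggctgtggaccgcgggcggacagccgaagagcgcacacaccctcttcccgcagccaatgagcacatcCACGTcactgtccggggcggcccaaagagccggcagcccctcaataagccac
Tpi1 lies at chr6:124814159-124814408, minus strand.
Tpi1: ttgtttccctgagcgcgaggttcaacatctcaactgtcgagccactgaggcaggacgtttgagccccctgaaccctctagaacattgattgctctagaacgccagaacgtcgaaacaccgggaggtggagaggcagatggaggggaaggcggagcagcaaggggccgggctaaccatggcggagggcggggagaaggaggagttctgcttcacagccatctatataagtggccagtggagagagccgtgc
Pgam1 lies at chr19:41911621-41911870, plus strand.
Pgam1: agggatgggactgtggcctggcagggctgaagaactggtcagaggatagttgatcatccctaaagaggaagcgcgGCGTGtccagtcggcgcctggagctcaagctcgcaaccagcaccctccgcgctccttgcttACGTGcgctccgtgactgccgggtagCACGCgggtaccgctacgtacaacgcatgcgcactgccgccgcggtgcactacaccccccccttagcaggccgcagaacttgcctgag
Ldhb lies at chr6:142507958-142508207, minus strand.
Ldhb: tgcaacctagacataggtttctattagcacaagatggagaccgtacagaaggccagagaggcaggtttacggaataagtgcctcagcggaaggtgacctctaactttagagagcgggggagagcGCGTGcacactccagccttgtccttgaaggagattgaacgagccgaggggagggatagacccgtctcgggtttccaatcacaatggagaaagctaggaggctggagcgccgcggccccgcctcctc

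The windows held 2 core matches for Hk2, 0 for Tpi1, 3 for Pgam1 and 1 for Ldhb. ACGTG or GCGTG stood on either strand in 40 of 57 windows (70.2%) of 37 enzyme genes and in 38.6% of all 32851 windows of the same length. Counted separately, ACGTG was in 38.6% of the enzyme windows and 16.6% of all, and GCGTG in 47.4% and 28.2%. CACGTG, the E-box bound by MYC and MAX, was in 8 of the 57 enzyme windows and 6.02% of all, and every CACGTG also holds ACGTG on both strands. The median GC content was 60.4% in the enzyme windows and 52.4% in all windows, and its part in these shares was not tested. A match describes letters, not binding.

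Hexokinase traps glucose in the cell as glucose 6-phosphate, and its isoenzyme genes differed in opposite directions. Hk2, the isoenzyme of insulin-responsive tissues and many tumours, had signals of 6402 in ES, 351 in B and 366 in T cells. It was bright in ES cells alone and was 17.5-fold lower in T cells and 18.2-fold lower in B cells. Hk1, the isoenzyme found in most tissues, had signals of 608 in ES, 955 in B and 1375 in T cells. It was 2.26-fold higher in T cells and 1.57-fold higher in B than in ES cells, and its dimmer probe set, below the detection level in ES cells, gave at least 0.69 and 0.15 on the log2 scale. With quantile normalization the T cell value was 0.95, short of 2-fold. The log2 differences of Hk1 and Hk2 lay 5.31 apart for T cells against ES cells and 4.84 apart for B cells, more than the 90th percentile of probe set disagreement. Between T cells and B cells they lay 0.47 apart, which was within it.

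Phosphofructokinase 1 commits fructose 6-phosphate to glycolysis, and its subunits are encoded by 3 genes. Pfkl, the liver-type subunit, had signals of 1858 in ES, 268 in B and 227 in T cells by its brightest probe set, 8.18-fold lower in T cells and 6.94-fold lower in B cells. Its probe sets disagreed: they ranged from -3.03 to 1.72 on the log2 scale for T cells and from -2.80 to 1.27 for B cells, so no direction can be given for Pfkl. Pfkm, the muscle-type subunit, had signals of 887 in ES, 164 in B and 341 in T cells. It was 2.60-fold lower in T cells and 5.41-fold lower in B than in ES cells, and 2.08-fold higher in T than in B cells. Pfkp, the platelet-type subunit, had signals of 3071, 1644 and 2556 in ES, B and T cells, within 2-fold in each comparison. Its 3 probe sets lay between -0.56 and -0.26 on the log2 scale for T cells and between -0.90 and -0.64 for B cells. Pfkfb3 makes fructose 2,6-bisphosphate, the activator of phosphofructokinase 1, and had signals of 293 in ES, 434 in B and 739 in T cells. It was 2.53-fold higher in T than in ES cells, although its other probe set, near the detection level, gave 0.01 on the log2 scale, and quantile normalization gave 0.96, short of 2-fold.

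Aldolase and triose phosphate isomerase finish the upper part of glycolysis. Aldoa, the main aldolase gene of most tissues, had signals of 25824 in ES, 7183 in B and 6558 in T cells. It was 3.94-fold lower in T cells and 3.60-fold lower in B cells. All 5 of its probe sets were lower, from -2.53 to -0.76 on the log2 scale in T cells. All 5 can cross-hybridise, so Aldoa has no value without such probe sets. Aldoc, the aldolase best known from brain, had signals of 1291 in ES, 365 in B and 166 in T cells. It was 7.76-fold lower in T cells and 3.54-fold lower in B than in ES cells, and 2.19-fold lower in T than in B cells. Tpi1, which interconverts the triose phosphates, had signals of 16432 in ES, 2342 in B and 1608 in T cells. It was 10.2-fold lower in T cells and 7.02-fold lower in B cells, and its 3 probe sets lay between -3.35 and -2.74 and between -2.84 and -2.57.

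Lower glycolysis yields ATP, and its members Pgk1, Pgam1 and Pkm were brighter in ES cells. Eno3, an enolase gene outside the member list, was not. It had signals of 591 in ES, 604 in B and 831 in T cells, within 2-fold. Pgk1, phosphoglycerate kinase, had signals of 26754 in ES, 5611 in B and 5567 in T cells, 4.81-fold lower in T cells and 4.77-fold lower in B cells. Between T and B cells its log2 difference was -0.01 by this probe set and 0.43 and 0.76 by the others, all within 2-fold. Pgam1, phosphoglycerate mutase, had signals of 15830 in ES, 2768 in B and 2064 in T cells, 7.67-fold lower in T cells and 5.72-fold lower in B cells. Pkm, which encodes the muscle pyruvate kinases by alternative splicing, had signals of 16120 in ES, 1938 in B and 2660 in T cells. It was 6.06-fold lower in T cells and 8.32-fold lower in B cells, and its single probe set was not used to tell the splice forms apart. Eno2, the neuronal enolase, was near or below the detection level at 103, 29.2 and 68.9 in ES, B and T cells. Genes such as Aldoa, Tpi1, Pgk1, Pgam1 and Ldha have processed pseudogenes, and signal shared with near-identical copies cannot be separated on this array.

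Lactate dehydrogenase interconverts pyruvate and lactate as a tetramer of subunits from Ldha and Ldhb. Ldha had signals of 24874 in ES, 5995 in B and 8914 in T cells. It was 2.79-fold lower in T cells and 4.15-fold lower in B than in ES cells, and T cells lay 1.49-fold above B cells. Ldhb, the heart-type subunit, had signals of 5201 in ES, 81.7 in B and 754 in T cells, with the B cell array under the detection level. It was 6.90-fold lower in T than in ES cells, at least 54.7-fold lower in B than in ES cells by this probe set, and at least 7.93-fold higher in T than in B cells. All 4 Ldhb probe sets kept this order of the arrays, with log2 differences of 1.66 to 2.99 between T cells and B cells. The smallest difference came from a probe set with 4655 in ES, 236 in B and 743 in T cells, all above the detection level, where B cells differed from ES cells by -4.30 on the log2 scale. By their brightest probe sets, Ldha and Ldhb lay at least 3.72 apart on the log2 scale for B cells against ES cells, less by the other Ldhb probe sets, and 1.31 apart for T cells against ES cells, the latter within the 90th percentile of probe set disagreement.

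**Figure D3:**
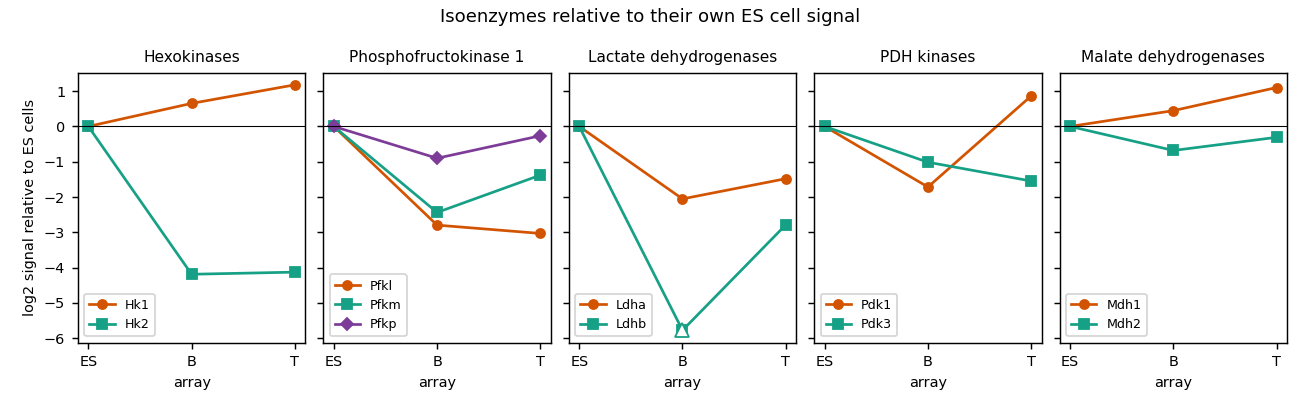
Log2 signal of isoenzyme genes in the B and T cell arrays relative to the same gene's ES cell signal, 1 array each, with the open triangle marking a value that is a bound. Hk1 and Hk2 part after ES cells, at 1.18 and -4.13 in T cells, and Ldhb and Pdk1 separate B cells from T cells.

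The pyruvate dehydrogenase complex turns pyruvate into acetyl-CoA, and the 3 subunit genes listed were at least 2-fold lower in both lymphocyte arrays by their brightest probe sets, against 24.7% and 24.6% of all genes. With quantile normalization Pdha1 in T cells, at -0.80 on the log2 scale, and Pdhb in B cells, at -0.855, were short of 2-fold. Pdha1, an E1 subunit, had signals of 6254 in ES, 2264 in B and 3037 in T cells, 2.06-fold lower in T cells and 2.76-fold lower in B cells. Pdhb, the other E1 subunit, had signals of 9773, 4458 and 3860 in ES, B and T cells, 2.53-fold lower in T cells and 2.19-fold lower in B cells. Its dim second probe set gave -1.02 and -0.35 on the log2 scale, and the mean of both was -0.74 in B cells. Dlat, the E2 acetyltransferase, had signals of 1776 in ES, 630 in B and 642 in T cells, 2.77-fold lower in T cells and 2.82-fold lower in B cells. The dimmest of its 3 probe sets gave -0.24 and -0.29 on the log2 scale, and the remaining one -1.41 and -1.47.

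Pyruvate dehydrogenase kinases switch the complex off by phosphorylation, and Pdk1 set T cells apart from B cells. Pdk1 had signals of 4132 in ES, 1258 in B and 7522 in T cells, the order being T, ES, B. It was 5.98-fold higher in T than in B cells, and all 4 of its probe sets were higher, from 1.38 to 2.58 on the log2 scale. Against ES cells it was 1.82-fold higher in T cells and 3.29-fold lower in B cells, but its probe sets ranged from -0.10 to 1.49 in T cells and from -2.19 to 0.11 in B cells. Pdk3 had signals of 1350 in ES, 668 in B and 462 in T cells, 2.92-fold lower in T cells and 2.02-fold lower in B than in ES cells, the latter just short of 2-fold with 16 added in place of the floor. Between T cells and B cells, the log2 differences of Pdk1 and Pdk3 lay 3.11 apart. Macrophage markers separated the lymphocyte arrays, with 12 of 12 at least 2-fold brighter in T cells and a median log2 difference of 1.29. Their part in the values of Ldhb and Pdk1 was not tested.

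By the brightest probe sets, 1 of the 3 pentose phosphate genes with a probe set, Pgd, was at least 2-fold lower in each lymphocyte population. The share of all genes was 24.7% in T and 24.6% in B cells. Pgd, the second oxidative NADPH-forming enzyme, had signals of 8569 in ES, 3280 in B and 2718 in T cells, 3.15-fold lower in T cells and 2.61-fold lower in B cells. This probe set can cross-hybridise, and the one probe set that is not of that kind gave -0.92 and -0.87 on the log2 scale, short of 2-fold. Tkt, transketolase of the non-oxidative branch, had signals of 18956, 14398 and 13045 in ES, B and T cells. These were within 2-fold, by a probe set that can also cross-hybridise. A probe set not of that kind gave 8196, 3791 and 2723, past 2-fold at -1.59 in T and -1.11 in B cells on the log2 scale. Another such probe set, near the detection level, gave -0.25 and -0.27. Taldo1, transaldolase of the same branch, had signals of 5480, 5585 and 5828 in ES, B and T cells, within 1.06-fold of the ES cell value in both lymphocyte arrays.

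**Figure D4:**
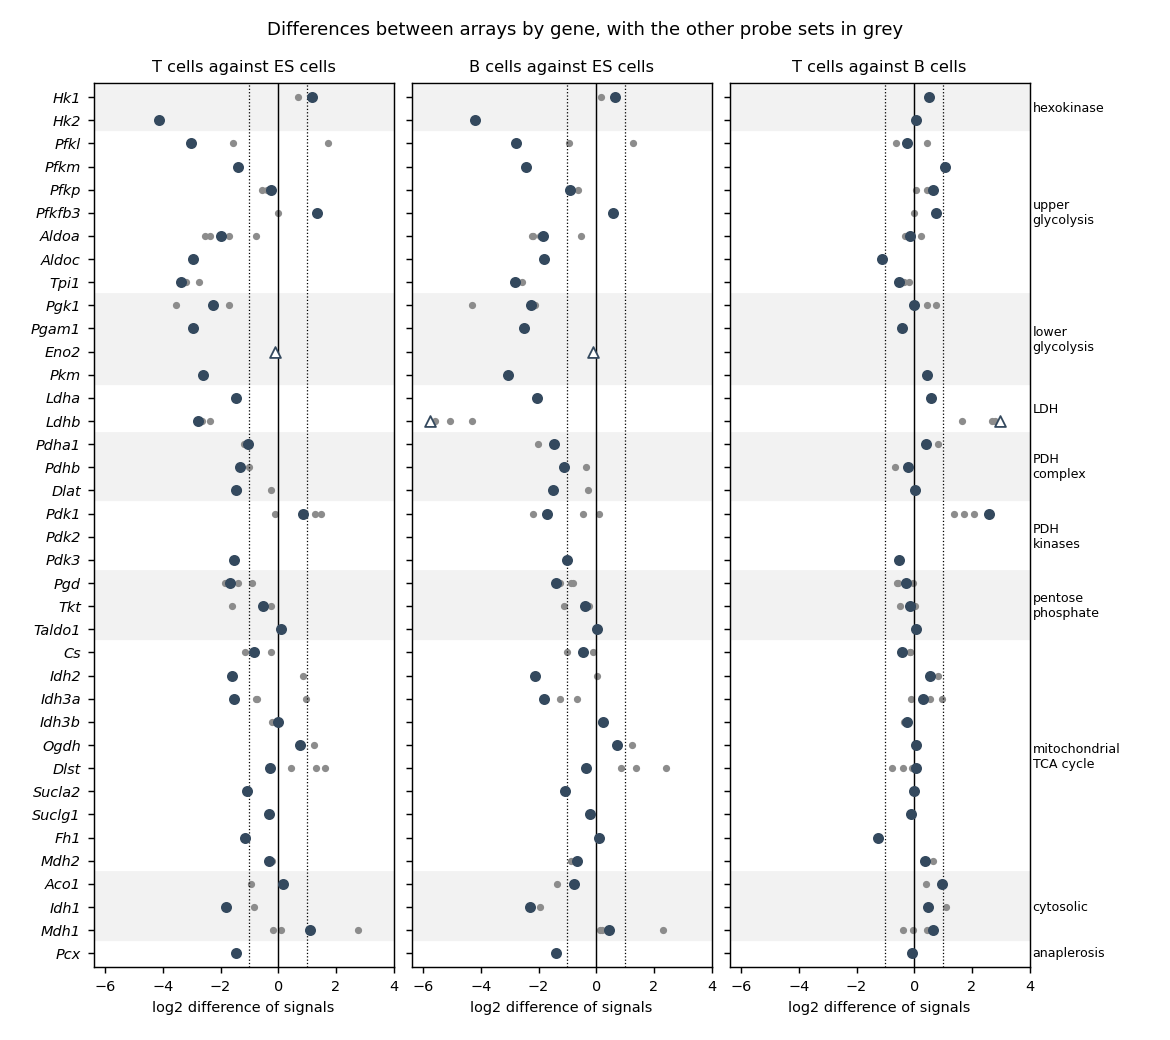
Log2 differences of signals for each enzyme gene in the 3 comparisons, by pathway step, with the representative probe set as a dark point (an open triangle where it is a bound) and the gene's other measured probe sets in grey. Dotted lines mark 2-fold. Hk2 at -4.13, Tpi1 at -3.35 and Ldhb in B cells at -5.77 lie far to the left, while Taldo1 and Idh3b lie near 0.

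Some mitochondrial TCA cycle genes were brighter in ES cells and others lay at similar levels. Of 10 genes, 4 in T and 3 in B cells were lower by 2-fold or more, against 24.7% and 24.6% of all genes, and 0 higher. The 3 of 10 in B cells is near the share of all genes. The median log2 differences were -0.59 and -0.39. Idh2, the mitochondrial NADP-dependent isocitrate dehydrogenase, had signals of 2761 in ES, 628 in B and 910 in T cells, 3.03-fold lower in T cells and 4.39-fold lower in B cells. Its dim second probe set gave 0.85 and 0.01 on the log2 scale, and the mean of both gave -0.38 in T cells, short of 2-fold. Idh3a, the catalytic subunit of the NAD-dependent isocitrate dehydrogenase, had signals of 6943 in ES, 1969 in B and 2426 in T cells. It was 2.86-fold lower in T cells and 3.53-fold lower in B cells, with another probe set at 0.97 in T cells, and the mean of its probe sets was short of 2-fold at -0.51 in T and -0.93 in B cells. Idh3b, another subunit of the same enzyme, had signals of 4556, 5379 and 4504 in ES, B and T cells, within 1.19-fold between arrays.

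Further members of the cycle included Sucla2, the ATP-forming subunit of succinyl-CoA ligase, with signals of 5602 in ES, 2628 in B and 2644 in T cells. Sucla2 was 2.12-fold lower in T cells and 2.13-fold lower in B cells, but short of 2-fold with quantile normalization, at -0.87 and -0.90 on the log2 scale. It was also short of 2-fold with the mean of its probe sets, but the others were below the detection level in every array. Its partner Suclg1 had signals of 3902, 3329 and 3114 in ES, B and T cells, within 1.25-fold. Fh1, fumarate hydratase, was the TCA cycle gene that separated the lymphocytes, with signals of 5228 in ES, 5625 in B and 2355 in T cells. It was 2.22-fold lower in T than in ES cells and 2.39-fold lower than in B cells, with a single probe set. With quantile normalization the difference from ES cells was -0.98 on the log2 scale, short of 2-fold. Cs, citrate synthase, had signals of 6063, 4464 and 3366 in ES, B and T cells, within 2-fold, while another probe set gave 3706, 1826 and 1665, past 2-fold at -1.15 in T and -1.02 in B cells on the log2 scale. Mdh2, mitochondrial malate dehydrogenase, had signals of 15870, 9895 and 12816, within 1.60-fold.

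The 2-oxoglutarate dehydrogenase genes were not called in either direction. Ogdh, its E1 subunit, had signals of 846 in ES, 1391 in B and 1440 in T cells, 1.70-fold higher in T cells and 1.64-fold higher in B than in ES cells. Its second probe set gave 1.25 and 1.24 on the log2 scale, also higher in lymphocytes. Dlst, its E2 subunit, had signals of 1874, 1479 and 1529 in ES, B and T cells by the brightest probe set. Across its probe sets the log2 difference ran from -0.29 to 1.63 in T cells and from -0.34 to 2.41 in B cells, so no direction can be given.

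The cytosolic counterparts and the anaplerotic gene differed from each other. Idh1, cytosolic isocitrate dehydrogenase, had signals of 3850 in ES, 779 in B and 1096 in T cells. It was 3.51-fold lower in T cells and 4.94-fold lower in B cells, with its other probe set at -0.82 on the log2 scale in T cells. Both Idh1 probe sets can cross-hybridise, so Idh1 has no value without such probe sets. Its log2 differences lay 0.21 and 0.17 from those of Idh2. Mdh1, cytosolic malate dehydrogenase of the malate-aspartate shuttle, had signals of 6043 in ES, 8238 in B and 12972 in T cells. It was 2.15-fold higher in T than in ES cells, by a probe set that can cross-hybridise. Its other 3 measured probe sets gave -0.19, 0.10 and 2.75 on the log2 scale in T cells and 0.20, 0.13 and 2.30 in B cells, so no direction can be given for T cells. Aco1, cytosolic aconitase and iron regulatory protein, had signals of 2212, 1284 and 2499 in ES, B and T cells, within 2-fold by a probe set that can cross-hybridise. Its other measured probe set gave 633, 247 and 326, or -0.96 in T and -1.36 in B cells on the log2 scale. Pcx, pyruvate carboxylase, which refills the cycle with oxaloacetate, had signals of 280 in ES, 107 in B and 101.6 in T cells. It was 2.75-fold lower in T cells and 2.60-fold lower in B cells, close to the detection level, and at -0.19 on the log2 scale in both with detection at the 65th percentile.

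Other genes of the same pathways were called in both directions. Of 64 listed, 55 had a probe set of a single symbol and 44 were measured against ES cells in each comparison. In T cells 9 of 44 (20.5%) were at least 2-fold lower and 6 (13.6%) higher, against 24.7% and 22.7% of all genes. In B cells 8 (18.2%) were lower and 7 (15.9%) higher, against 24.6% and 21.1%. These shares are below those of all genes, with median log2 differences of -0.26 and -0.28. Between T cells and B cells, 2 of 40 were at least 2-fold higher and 2 lower, against 8.89% and 6.32% of all genes.

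Among other glycolysis genes, 2 of 16 (12.5%) in T and 1 of 17 (5.88%) in B cells were at least 2-fold below ES cells. Of all genes, 24.7% and 24.6% were. At least 2-fold higher were 1 (6.25%) and 2 (11.8%), against 22.7% and 21.1% of all genes. The median log2 difference was -0.16 in both. Tigar, a fructose bisphosphatase that lowers glycolysis, had signals of 975 in ES, 80.5 in B and 80.9 in T cells. It was at least 10.3-fold lower in both lymphocyte arrays, with a probe set at -0.66 in T cells and -0.21 in B cells. Hk3, the hexokinase of myeloid cells, had signals of 33.8 in ES, 262 in B and 583 in T cells, at least 6.14-fold (T) and 2.76-fold (B) above ES cells, with its other probe set at 0.79 and 1.04 on the log2 scale. The brighter Hk3 probe set can cross-hybridise, and between T and B cells it gave 1.16 where the other gave -0.25. Macrophage markers summed to 4331 in ES, 28949 in B and 69964 in T cells, and neutrophil markers to 281, 7020 and 13963. The part of these cell types in the value of Hk3 was not tested. Pgm2, a phosphoglucomutase, differed by -1.58 on the log2 scale between T and ES cells and was 1.95-fold lower in B than in ES cells. Pfkfb4, a relative of Pfkfb3, was 2.22-fold higher in B than in ES cells, and Pfkfb2 was 2.29-fold lower in T than in B cells, with a probe set at -0.45 on the log2 scale.

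Among the other pyruvate dehydrogenase genes, Mpc1, a subunit of the mitochondrial pyruvate carrier, had signals of 810 in ES, 2922 in B and 2256 in T cells. It was 2.79-fold higher in T cells and 3.61-fold higher in B cells, opposite to the subunit genes of the complex. Pdpr, a regulator of the phosphatase that switches the complex on, was 2.30-fold higher in T cells and 2.42-fold higher in B cells, with a probe set at -0.23 in T cells. Pdhx, a structural subunit, was 1.67-fold lower in T cells and 2.39-fold lower in B cells.

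The genes that lead from the pentose phosphate pathway to nucleotides differed in both directions. Rpia, ribose 5-phosphate isomerase, had signals of 628 in ES, 3049 in B and 2241 in T cells, 3.57-fold higher in T cells and 4.85-fold higher in B cells. Rpe, the epimerase acting on the same substrate, had signals of 4198, 1047 and 1137 in ES, B and T cells, 3.69-fold lower in T cells and 4.01-fold lower in B cells, with a probe set at -0.53 in T and -0.74 in B cells on the log2 scale. Prps1 and Prps2 encode isoenzymes that make phosphoribosyl pyrophosphate. Prps1 had signals of 5033 in ES, 1284 in B and 1783 in T cells, 2.82-fold lower in T cells and 3.92-fold lower in B cells. Prps2 had signals of 729 in ES, 3435 in B and 3616 in T cells, 4.96-fold higher in T cells and 4.71-fold higher in B cells, although its weakest probe set gave 0.02 and 0.14 on the log2 scale.

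Among other TCA and anaplerosis genes, 5 of 13 in T and 4 of 13 in B cells were at least 2-fold lower, against 24.7% and 24.6% of all genes. None of the 13 was higher by 2-fold, against 22.7% and 21.1%. Me1, the cytosolic malic enzyme, had signals of 958 in ES, 96.9 in B and 44.4 in T cells, at least 10.1-fold lower in T cells and 9.89-fold lower in B cells. Got1, the cytosolic aspartate aminotransferase, had signals of 5505 in ES, 1234 in B and 947 in T cells, 5.81-fold lower in T cells and 4.46-fold lower in B cells. Pck2, mitochondrial phosphoenolpyruvate carboxykinase, was 2.34-fold lower in T than in B cells.

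Of 11 measured genes of the hypoxia pathway and glucose regulation, 4 were at least 2-fold lower and 2 higher in T cells, against 24.7% and 22.7% of all genes. In B cells 3 were lower and 2 higher, against 24.6% and 21.1%. With 11 genes, these counts are near the shares of all genes. Hif1a, the hypoxia-inducible subunit regulated mainly as a protein, had signals of 5408 in ES, 5054 in B and 8082 in T cells, within 2-fold in each comparison by this probe set, while T cells were higher by up to 1.21 on the log2 scale against ES and 1.09 against B cells among its other probe sets. Epas1, which encodes the related HIF-2 alpha, had signals of 2616 in ES, 5.8 in B and 428 in T cells, 6.11-fold lower in T cells, and lower in B cells by at least 27.5-fold. Bnip3, a hypoxia-induced gene of mitophagy, had signals of 5213, 511 and 350 in ES, B and T cells, 14.9-fold lower in T cells and 10.2-fold lower in B cells. Egln3, a HIF prolyl hydroxylase, was 2.93-fold lower in T cells, and lower in B cells by at least 9.35-fold, with its other probe set at -0.76 on the log2 scale in both. Txnip, which restrains glucose uptake and is itself induced by glucose, had signals of 1961 in ES, 7913 in B and 10142 in T cells, 5.17-fold higher in T cells and 4.04-fold higher in B cells. Ddit4 had signals of 3360 in ES, 3262 in B and 6863 in T cells. It was 2.04-fold higher in T than in ES cells and 2.10-fold higher than in B cells. Egln2 had signals of 1207, 2595 and 1302 in ES, B and T cells, 2.15-fold higher in B than in ES cells. Ankrd37, a target gene of hypoxia-inducible factor, had signals of 677 in ES, 668 in B and 146 in T cells, 4.63-fold lower in T than in ES cells and 4.57-fold lower than in B cells. Between T and B cells, 3 of the 11 were higher in T cells by 2-fold or more and 1 lower, against 8.89% and 6.32% of all genes. Epas1 was higher in T cells by at least 4.51-fold.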

How the data were processed

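The intensity values the authors deposited are linear signals of 45037 probe sets on 3 arrays, made with Affymetrix Expression Console per the submitters' processing notes. The version, scaling and summarization were not given in the sources used here. Trimmed means (2%) of the columns were 497.3 to 497.8, so a change in total mRNA per cell cannot be seen.

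Probe sets were named through GEO's platform annotation: 34945 had 1 symbol, 932 several and 9160 none. Detection was set at the 50th percentile of the whole table. Signals were compared as log2 differences between arrays (Python 3.11.15, pandas 2.3.3, numpy 2.4.6), for a probe set and never between probe sets, and a fold against an array below the detection level is written "at least". The code for fold calls was run on simulated arrays with large changes in bright genes, little noise and the 4-fold limit. That run did not test the 2-fold calls or the error of these arrays. The sequence windows are RefSeq's. Probe sets ending in x_at or s_at can cross-hybridise with other transcripts. The fold limits were 2 and 4, and 7 alternatives were tried.

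All members were named, with genes of the other pathway lists that differed at least 4-fold and up to 3 further genes of greatest difference per list. Eno3, Pck2 and Hif1a were named in addition. Marker lists are given as counts and sums. The members and lists were chosen with earlier results of these data known. A planned comparison of lactate dehydrogenase proteins was not made.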

Additional observations from a re-analysis of the deposited data

How the results depend on the processing

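With 1 array per population no array could be left out, and no paired analysis was possible because no group has a second sample. Over 6 alternatives that give a median, the enzyme genes' median log2 difference ran from -1.72 to -0.96 for T cells against ES cells, from -1.73 to -0.91 for B cells against ES cells and from 0.02 to 0.05 for T cells against B cells. Over 7 alternatives, genes at least 2-fold lower than in ES cells numbered 15 to 23 in T cells and 14 to 25 in B cells. The 23 and 25 came with scaling to the 75th percentile, where 32.8% and 31.4% of all genes were lower by as much. With the mean of all probe sets the counts were 18 and 17, against 19% and 18.8% of all genes. The 15 and 14 came where every probe set had to pass, and no share of all genes was computed under that rule. Genes higher in T than in ES cells by 2-fold or more went from 3 to 0 with scaling to the 75th percentile. They went to 1 with the mean of all probe sets and to 0 where every probe set had to pass. Of all genes, 17.2% were higher by as much with the scaling and 19% with the mean of all probe sets. In B cells 1 gene in place of 0 was at least 2-fold higher with the mean of all probe sets, against 17.8% of all genes. For T cells against B cells, genes at least 2-fold lower went from 2 to 1 with detection set at the 65th percentile and to 1 with the mean of all probe sets. The shares of all genes were 5.74% and 4.83%. Genes at least 4-fold higher went from 2 to 1 with the 65th percentile, to 1 with the mean of all probe sets, to 1 without x_at and s_at probe sets and to 0 where every probe set had to pass. The shares of all genes were 1.87%, 1.67% and 2.45% in the settings before the last. Mdh1 in T cells against ES cells changed to -0.19 without x_at and s_at probe sets. The cause of these changes was not tested. The median of all genes against ES cells was -0.42 and -0.37 in T and B cells with scaling to the 75th percentile and -0.26 and -0.22 with quantile normalization. Signals near the detection level limit Eno2, Pdk2, Pcx and the B cell value of Ldhb.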
